A study of Mus musculus with 132 samples.

Results

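Transcription factors of the pluripotency network, 10 in all, were followed in single cells of mouse preimplantation embryos: *Nanog*, *Sox2*, *Pou5f1*, *Esrrb*, *Klf2*, *Klf4*, *Sall4*, *Tfcp2l1*, *Prdm14* and *Otx2*. They were taken by gene symbol, and all 10 were found among the 32245 genes of the count table. The table held 54 cells of the 8-cell stage and 78 cells of the 32-cell stage. They were sequenced by Smart-seq2, which covers polyadenylated transcripts over their whole length and has no molecular identifiers. Embryos of C57BL/6 x DBA F1 females and males (C57BL/6NCrl x DBA/2NHsd in the study's methods) were collected at the 2-cell stage and cultured with a mimic of miR-381-3p, a synthetic double of that microRNA, or with a scrambled control mimic. Cells were isolated at the 8-cell stage (embryonic day 2.5) from control embryos (30 cells) and mimic-treated embryos (24 cells), and at the 32-cell stage (embryonic day 3.5) from control embryos (39 cells) and mimic-treated embryos (39 cells). The dose was 5 or 10 µM in the labels, which tie neither dose to a cell. The study's text gives 10 µM for the sequenced 8-cell embryos and 5 µM for the 32-cell embryos, so dose and stage cannot be told apart. Each group came from 3 to 5 embryos, and the labels do not tie cells to embryos.

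Pou5f1 (also called OCT4), SOX2 and NANOG form the core of the pluripotency network: they bind DNA together at many shared sites, including sites at their own genes. ESRRB, TFCP2L1, KLF2, KLF4 and PRDM14 hold mouse cells in the naive state, SALL4 works beside the core factors, and OTX2 drives the exit from the naive state towards the formative epiblast. At the 32-cell stage the mouse embryo separates into an outer trophectoderm (TE), marked by CDX2, and an inner cell mass (ICM), where SOX2 becomes restricted to inner cells while OCT4 is still present in both.

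The mimic copies the mature microRNA below, shown because its seed largely sets which transcripts it can pair with. The seed, bases 2 to 8, is in capitals, and the microRNA lies at chr12:109726870-109726891 on the plus strand (RefSeq, GRCm38.p6).

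mmu-miR-381-3p: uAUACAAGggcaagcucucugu

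The longest annotated 3′ UTR of each factor (GENCODE M21, GRCm38, the build of the count table) was searched for the 8-base site cttgtata, the 7-base seed match cttgtat and the 7-base match with A, ttgtata, on the transcript strand. The 7-base matches lie within the 8-base site and were counted only outside it. None of the 10 factors held the 8-base site, which was present in 3.11% of the 20775 genes with a 3′ UTR. A 7-base site was held by 3 factors, *Klf2*, *Klf4* and *Tfcp2l1*, against 21.6% of all genes with a site of any kind. The windows below are shown because they are the only matches among the factors, with the site in capitals and each read 5′ to 3′ on the transcript.

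Klf2, chr8:72321237-72321243, plus strand: tttttataataTTGTATAtaagactatga

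Klf4, chr4:55527663-55527669, minus strand: gtaaagatcacCTTGTATgctctttgcct

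Klf4, chr4:55527249-55527255, minus strand: aaacttctattTTGTATAtttgtaaacta

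Tfcp2l1, chr1:118679798-118679804, plus strand: tgattggccatTTGTATAtctttgggaaa

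All 4 sites lie in 3′ UTR exons. The *Klf2* site begins at base 318 of a 3′ UTR of 737 bases, the *Klf4* sites at bases 456 and 870 of 982, and the *Tfcp2l1* site at base 2364 of 7734. A match of 7 letters is a description of the sequence and does not show that the microRNA acts there.

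The promoter of *Nanog* is shown as well, because the co-expression of *Nanog*, *Pou5f1* and *Sox2* is described below and this window holds an octamer and a SOX motif side by side. The letters TTTGCAT (octamer) and ACAATG (SOX), searched on both strands in the 300-base windows around annotated starts (RefSeq, GRCm38.p6), were found in 4.63% and 12.6% of 32851 windows. The octamer with the SOX letters 1 base after it was found in 2 windows of all 32851 (0.00609%), both of them overlapping windows of *Nanog*. Only these exact letters at this spacing were counted, so the share does not show how common other forms of the joint motif are. A window was listed for 8 of the factors. The *Nanog* window at chr6:122707239-122707538 on the plus strand carried both motifs, in capitals below, with the octamer beginning 75 bases before the start.

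Nanog: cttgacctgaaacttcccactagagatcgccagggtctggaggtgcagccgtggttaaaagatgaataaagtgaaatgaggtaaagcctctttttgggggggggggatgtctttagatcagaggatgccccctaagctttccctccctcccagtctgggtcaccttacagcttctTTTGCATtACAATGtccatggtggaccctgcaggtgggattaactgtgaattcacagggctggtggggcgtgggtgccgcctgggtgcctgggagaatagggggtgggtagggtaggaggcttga

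*Sox2* had an octamer (as its reverse complement) and no SOX letters, and 1 of 2 windows each of *Esrrb* and *Pou5f1* had SOX letters and no octamer. The other windows of the factors held neither.

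Total counts per cell ranged from 544866 to 3461022 (median 1260663). All cells passed the stated filter of 3000 genes and 10% mitochondrial counts, and no 2 cells held identical values. Levels are given as CPM, counts per 1000000 counts of the cell or group without the 13 mitochondrial genes, with an exact Poisson 95% interval for a group. Because embryos cannot be told apart, each group counts as 1 sample: cells are not replicates, no test between groups was made, and the intervals cover counting error only. A factor was called past 2-fold when the difference of log2(CPM + 1) was at least 1 in size and the gene reached 20 CPM in either group. In a single cell, a count of 0 allowed up to 2.31 to 2.55 CPM at the median depth of the groups. *Xist*, which is transcribed from the inactive X, and 4 Y-linked genes separated the 32-cell treatments completely: Y-linked counts exceeded *Xist* in 39 of 39 control cells, and *Xist* exceeded them in 39 of 39 mimic cells. At the 32-cell stage sex and treatment therefore cannot be told apart. At the 8-cell stage both kinds of cell were present, with *Xist* higher in 23 of 30 control cells and in 14 of 24 mimic cells.

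**Figure D1:**
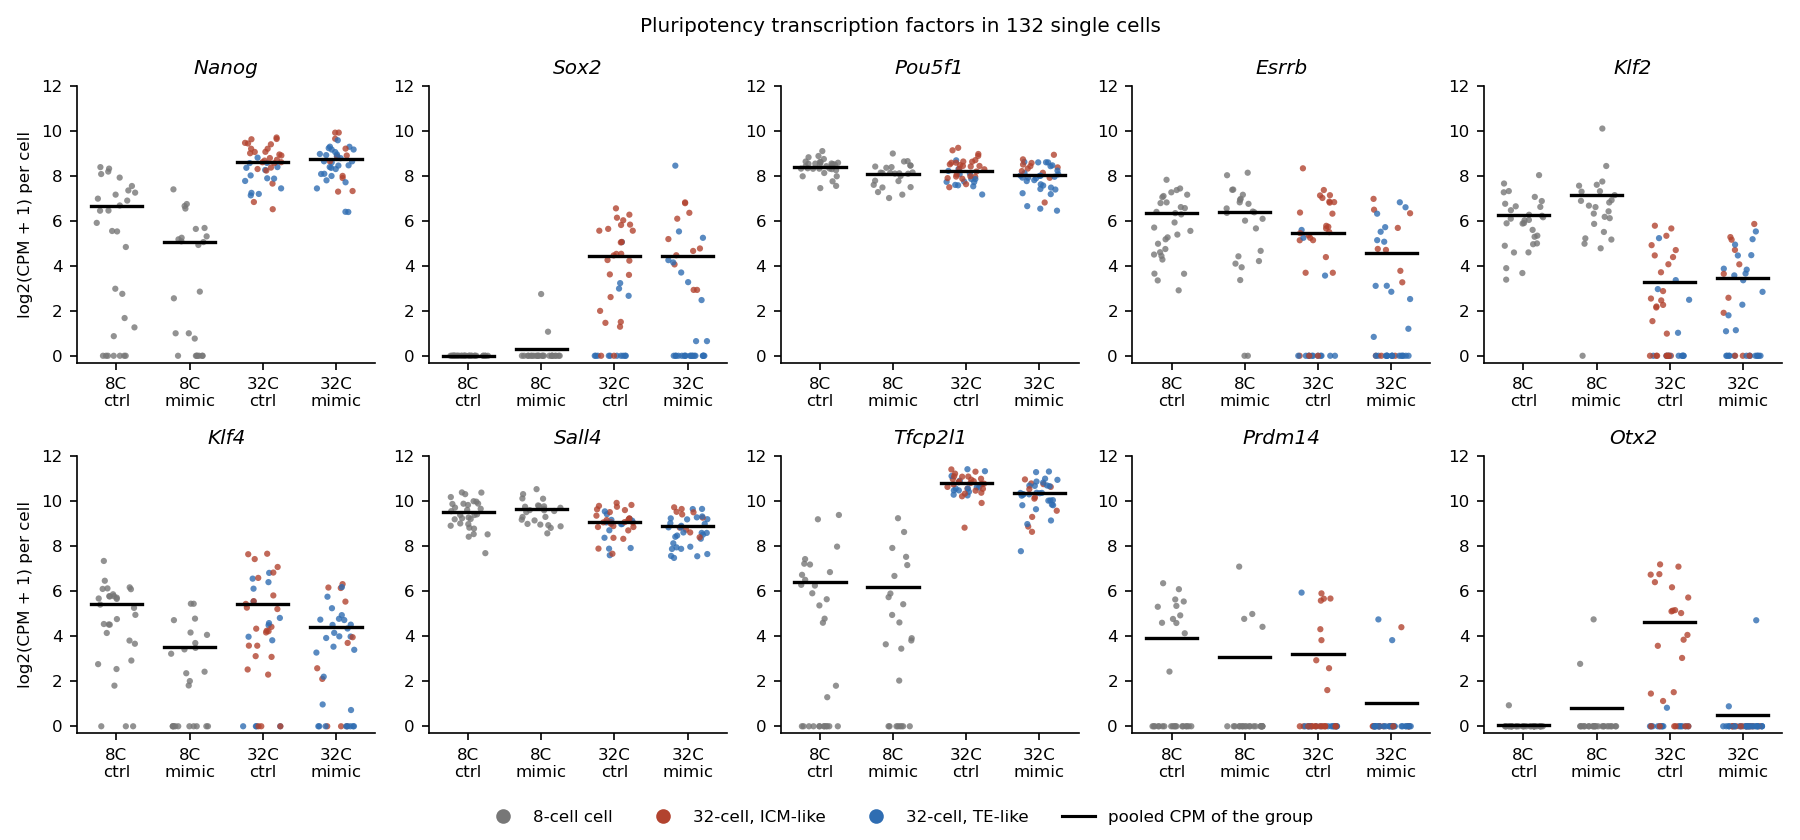
Level of each factor in every cell. The vertical axis is log2(CPM + 1), each point is a cell, coloured grey at the 8-cell stage and by class at the 32-cell stage, and the black line is the pooled level of the group. *Pou5f1* and *Sall4* had a count in every cell, while *Otx2* was held mainly by ICM-like control cells.

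Per kilobase of exon, *Pou5f1* (150.8 CPM per kb) and *Sall4* (134.5 CPM per kb) were the highest factors in 8-cell control cells. *Nanog* (44.8 CPM per kb) and *Klf2* (40.4 CPM per kb) followed, then *Klf4* (13.9 CPM per kb), *Esrrb* (13.4 CPM per kb), *Tfcp2l1* (8.87 CPM per kb) and *Prdm14* (5.47 CPM per kb). *Otx2* and *Sox2* were at or near 0. The interquartile ranges over cells overlapped between all neighbours in this order except *Sall4* and *Nanog*. In 32-cell control cells the order began with *Tfcp2l1* (190.7 CPM per kb), *Nanog* (174.4 CPM per kb), *Pou5f1* (132 CPM per kb) and *Sall4* (97.6 CPM per kb). The other 6 factors lay between 3.19 and 13.9 CPM per kb. Here the single gap between neighbours lay between *Sall4* and *Klf4*, so the network split into 4 high factors and 6 low ones. The 32-cell mimic cells had the same gap, between *Sall4* (87.1 CPM per kb) and *Sox2* (10.2 CPM per kb).

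*Pou5f1* (chr17:35506018-35510772, plus strand; gene positions are in GRCm38, from GENCODE M21) was the most even of the core factors. Its level per cell, given as lowest, median and highest, was 174.8, 349.7 and 549.5 CPM in 8-cell control cells and 128.5, 277.7 and 510 CPM in 8-cell mimic cells. It was 143.4, 292.3 and 607.5 CPM in 32-cell control cells and 86.7, 256.4 and 490 CPM in 32-cell mimic cells. The 4 groups overlapped over most of their range. *Sall4* (chr2:168748332-168767943, minus strand), a zinc-finger factor also required for early embryo growth, behaved in the same way, with a count in every cell and medians of 680.9 and 770.3 CPM at the 8-cell stage and 536 and 456 CPM at the 32-cell stage, for control and mimic.

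*Nanog* (chr6:122707489-122714633, plus strand) was uneven at the 8-cell stage and present in every cell at the 32-cell stage. In 8-cell control cells it ranged from 0 to 334.7 CPM (median 52.5 CPM), with a count in 23 of 30 cells. In 8-cell mimic cells it ranged from 0 to 168.2 CPM (median 17.8 CPM), with a count in 17 of 24 cells. All 39 control cells at the 32-cell stage held it, from 90.7 to 835.8 CPM (median 381.2 CPM), and so did all 39 mimic cells, from 83.2 to 973 CPM (median 400.3 CPM). Every 32-cell cell of either treatment lay above the median of its 8-cell group. *Nanog* has near-identical retrocopies in the mouse genome. No retrocopy has a row under a name beginning with Nanog, and how reads of such copies were counted is not known, so its level is uncertain to that extent.

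*Sox2* (chr3:34650405-34652461, plus strand) was at or near 0 at the 8-cell stage. The 30 8-cell control cells had 0 counts (at most 0.0817 CPM in their sum), and 7 counts in 2 of 24 8-cell mimic cells gave 0.227 CPM. At the 32-cell stage 27 of 39 control cells held it, up to 93.2 CPM, and 21 of 39 mimic cells, up to 350.3 CPM. *Sox2* lies inside the *Sox2ot* transcript on the same strand, which had 31 counts in 32-cell control cells and 17 in 32-cell mimic cells against 1169 and 1112 of *Sox2*.

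From the 8-cell to the 32-cell stage, 4 of the 9 factors at 20 CPM or more were past 2-fold higher in control embryos and 1 was past 2-fold lower. The shares over all 7469 genes tested were 30% higher and 20.1% lower. *Tfcp2l1* (chr1:118627945-118685168, plus strand), a factor downstream of LIF signalling in naive cells, was 21.5-fold higher (20.7 to 22.3), at 1800 CPM against 83.7 CPM. It was held by 18 of 30 8-cell cells and by all 39 32-cell cells, of which 38 lay above the highest 8-cell cell. Its lowest, median and highest cells were 0, 24.97 and 674.1 CPM at the 8-cell stage and 455.5, 1741 and 2767 CPM at the 32-cell stage. *Nanog* was 3.90-fold higher (3.76 to 4.03). *Sox2* was at least 251.6-fold higher, set against the limit that 0 counts allow over the whole 8-cell group. *Otx2* was at 23.6 CPM against 1 count in the whole 8-cell control group, a ratio of 865.9 with a counting interval from 155.1 to 34220. Without their highest 32-cell control cell, *Sox2* stood at 17.7 CPM and *Otx2* at 18.9 CPM. Both then lay under the limit of 20 CPM, so these calls were lost.

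*Klf2* (chr8:72319033-72321656, plus strand), a Krüppel-like factor of naive cells, went the other way. It was present in all 30 8-cell control cells, from 9.46 to 261.2 CPM (median 64.5 CPM). In 32-cell control cells it was present in 22 of 39, with a median of 1.91 CPM and a highest value of 54.2 CPM. The pooled level was 8.58-fold lower (7.80 to 9.46), and 29 of the 39 cells lay below the lowest 8-cell cell. *Klf4* (chr4:55527143-55532466, minus strand), its close relative, was level between the stages in control cells, at 42.5 CPM and 42.2 CPM (ratio 1.01, 0.945 to 1.07), although without the second control run described below it was past 2-fold lower at the 32-cell stage. *Esrrb* (chr12:86361117-86521628, plus strand), an orphan nuclear receptor, was 1.87-fold lower (1.78 to 1.98), short of the 2-fold rule. All 39 32-cell control cells had the Y-linked genes above *Xist*, while the 8-cell control cells were mixed, so sex differed between the stages. Against only the 8-cell control cells with the Y-linked genes above *Xist*, *Esrrb* was past 2-fold lower, at 43.3 CPM against 134.9 CPM, and *Tfcp2l1* stood at 1800 CPM against 24.8 CPM. *Nanog* was then at 391.0 CPM against 145.4 CPM and *Klf2* at 8.70 CPM against 42.4 CPM, in the same directions as over all cells. The part of sex in the stage differences was not tested.

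In mimic-treated embryos 3 of 8 factors were past 2-fold higher at the 32-cell stage and 2 were past 2-fold lower, beside 29.1% and 18.8% of all 7594 genes tested. *Nanog* was 13.4-fold higher (12.5 to 14.3) and *Tfcp2l1* 18.4-fold higher (17.6 to 19.2). *Sox2* was 92.2-fold higher (44.6 to 229.9), a fold that rests on 7 counts in the 8-cell mimic cells, of which 1 cell gave 85.7%. *Klf2* was 14.04-fold lower (12.8 to 15.4) and *Esrrb* 3.62-fold lower (3.38 to 3.88). All 39 32-cell mimic cells had *Xist* above the Y-linked genes, and against only the 8-cell mimic cells of that kind the same 5 factors were past 2-fold in the same directions. *Otx2* was below 20 CPM at both stages, at 0.744 and 0.413 CPM. The median log2 change over all genes was 0.20 in both stage comparisons, and scaling by trimmed mean of M values (TMM) moved it by -0.13 in the mimic comparison, which took *Sox2* below 20 CPM there.

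**Figure D2:**
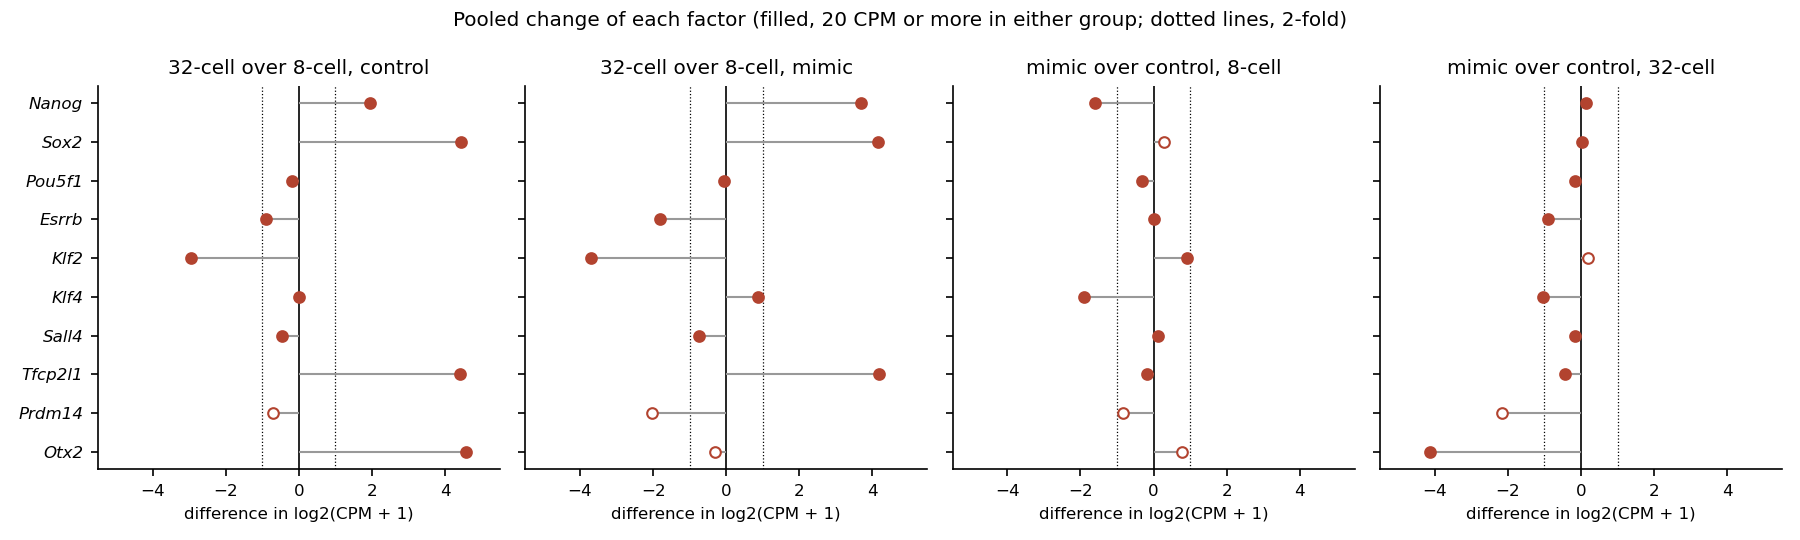
Pooled change of each factor in the 4 group comparisons, as the difference in log2(CPM + 1). Filled points reached 20 CPM in either group, open points did not, and dotted lines mark 2-fold. *Nanog* and *Klf4* lay past 2-fold lower with the mimic at the 8-cell stage, and *Klf4* and *Otx2* at the 32-cell stage.

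With the mimic at the 8-cell stage, 0 of 7 factors were past 2-fold higher and 2 were past 2-fold lower, beside 6.96% and 6.09% of 6570 genes tested. *Nanog* stood at 32.2 CPM against 100.4 CPM in control cells, 3.12-fold lower (2.91 to 3.35). In control, 6 of 30 cells lay above the highest mimic cell, and 4 of the 24 mimic cells lay above the control median. *Klf4* stood at 10.6 CPM against 42.2 CPM, 3.98-fold lower (3.53 to 4.50). Its lowest, median and highest cells were 0, 33.8 and 162.6 CPM in control and 0, 3.58 and 42.8 CPM in mimic, and 13 of the 30 control cells lay above every mimic cell. The groups of both genes overlapped, since control cells at 0 were also present.

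Both differences were also seen within cells of 1 sex. Where *Xist* exceeded the Y-linked genes, control and mimic cells had 81.5 and 26.9 CPM of *Nanog*, and 34.9 and 13.6 CPM of *Klf4*. Where the Y-linked genes exceeded *Xist*, the levels were 145.4 and 30.8 CPM of *Nanog*, and 59.8 and 5.76 CPM of *Klf4*. *Klf2* pointed the other way, at 142.4 CPM with the mimic against 74.7 CPM in control (1.91-fold higher, 1.82 to 2.00), short of the 2-fold rule. One mimic cell at 1102 CPM gave 30% of its counts, and the level without that cell was 103.8 CPM. Within the cells with *Xist* above the Y-linked genes *Klf2* was at 88.3 CPM in control and 141.6 CPM with the mimic. That mimic level includes the cell at 1102 CPM, and the direction of the pooled difference rests on it. The medians of these cells were 64.9 CPM in control and 75.3 CPM with the mimic. Within cells with the Y-linked genes above *Xist*, *Klf2* was at 42.4 and 130.9 CPM. *Tfcp2l1* was 1.15-fold lower (1.09 to 1.21) over all cells, but its direction differed between the sexes: control and mimic cells were at 108.5 and 63.2 CPM where *Xist* was the higher and at 24.8 and 123.9 CPM where the Y-linked genes were. *Pou5f1* was 1.25-fold lower (1.21 to 1.28), *Sall4* 1.08-fold higher (1.06 to 1.10) and *Esrrb* 1.01-fold higher (0.957 to 1.07). The directions of *Sall4* and *Esrrb* also differed between the sexes. Where *Xist* was the higher, control and mimic cells had 723.2 and 754.2 CPM of *Sall4*, and 58.6 and 72.9 CPM of *Esrrb*. Where the Y-linked genes were, the levels were 796.2 and 696.6 CPM of *Sall4*, and 134.9 and 116.7 CPM of *Esrrb*. The 7 ICM markers used below had a summed level of 1970 CPM in 8-cell control cells (349.4 to 2952 per cell) and 1270 CPM in mimic cells (520.7 to 2701 per cell), none at 0, and their part in these differences was not tested.

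*Prdm14* (chr1:13113457-13127163, minus strand), a repressor of differentiation genes that also acts in germ cells, did not reach 20 CPM in any group. It was held by 12 of 30 8-cell control cells and 4 of 24 8-cell mimic cells, at pooled levels of 14.02 and 7.44 CPM, and 1 mimic cell gave 70.4% of the counts of its group. At the 32-cell stage it was held by 10 of 39 control cells (8.17 CPM) and 3 of 39 mimic cells (1.05 CPM). All 13 of these 32-cell cells also held *Sox2*.

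With the mimic at the 32-cell stage, 0 of 8 factors were past 2-fold higher, beside 6.87% of 7307 genes tested, and 2 were past 2-fold lower, beside 5.36%. The larger difference was that of *Otx2* (chr14:48657677-48673819, minus strand). Control cells ranged from 0 to 146.1 CPM, with a count in 19 of 39 cells and a median of 33.6 CPM among those 19. Mimic cells held it in 2 of 39, 1 of them at 25.3 CPM and the other at a single count. The pooled level was 57.0-fold lower (37.5 to 91.3), at 0.413 CPM against 23.6 CPM. The highest mimic cell was exceeded by 11 control cells. Without the highest cell of each group the levels were 18.9 CPM and 0.0191 CPM, so the direction held although the gene then stood under 20 CPM. *Otx2* overlaps the *Otx2os1* transcript on the opposite strand, which had 27 counts in control cells and 0 in mimic cells, and the kit does not mark strand.

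The titles of the cells carry numbers, and the numbers of a group were split into runs, 2 in 32-cell control cells (24 and 15 cells) and 3 in 32-cell mimic cells (18, 12 and 9 cells). Inside the runs 5 numbers are missing, and the second mimic run, the second control run and the last mimic run follow each other in 1 series of numbers, so their borders are set by treatment. No label says what a run is. The 8-cell mimic cells form 1 run, and the 8-cell control cells form runs of 28 and 2. *Otx2* was at 24.7 and 21.96 CPM in the control runs and at 0.0494, 1.22 and 0 CPM in the mimic runs, so that no mimic run came near a control run. *Esrrb* was at 40.8 and 47.1 CPM in the control runs and at 16.7, 29.3 and 23.1 CPM in the mimic runs, again without overlap, for a pooled difference of 1.91-fold (1.78 to 2.05). Its lowest, median and highest cells were 0, 34.3 and 322.7 CPM in control and 0, 1.301 and 125.2 CPM in mimic, so single cells of the groups overlapped.

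Over all cells, the runs of *Klf4* did not separate the treatments. It was 2.09-fold lower (1.94 to 2.25) with the mimic over all cells, at 20.4 against 42.5 CPM, but the control runs stood at 19.8 and 76.4 CPM and the mimic runs at 14.97, 19.4 and 28.3 CPM. Without the second control run the log2 difference was 0.04, so the call was lost without those 15 cells. It was also lost without the first mimic run (-0.82), without the second mimic run (-0.995), without the highest cell of each group (-0.93) and with a pseudocount of 5 CPM (-0.906). The ICM markers used below also differed over all cells, with a summed level of 1065 CPM in control (54.6 to 2655 per cell) and 732.3 CPM in mimic (75.4 to 2380 per cell), none of the 7 at 0 in either group. The values of *Otx2* and *Esrrb* within ICM-like cells are given with the classes. *Prdm14* was likewise uneven between the control runs, at 3.496 and 15.1 CPM, with mimic runs at 2.22, 0.641 and 0 CPM.

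**Figure D3:**
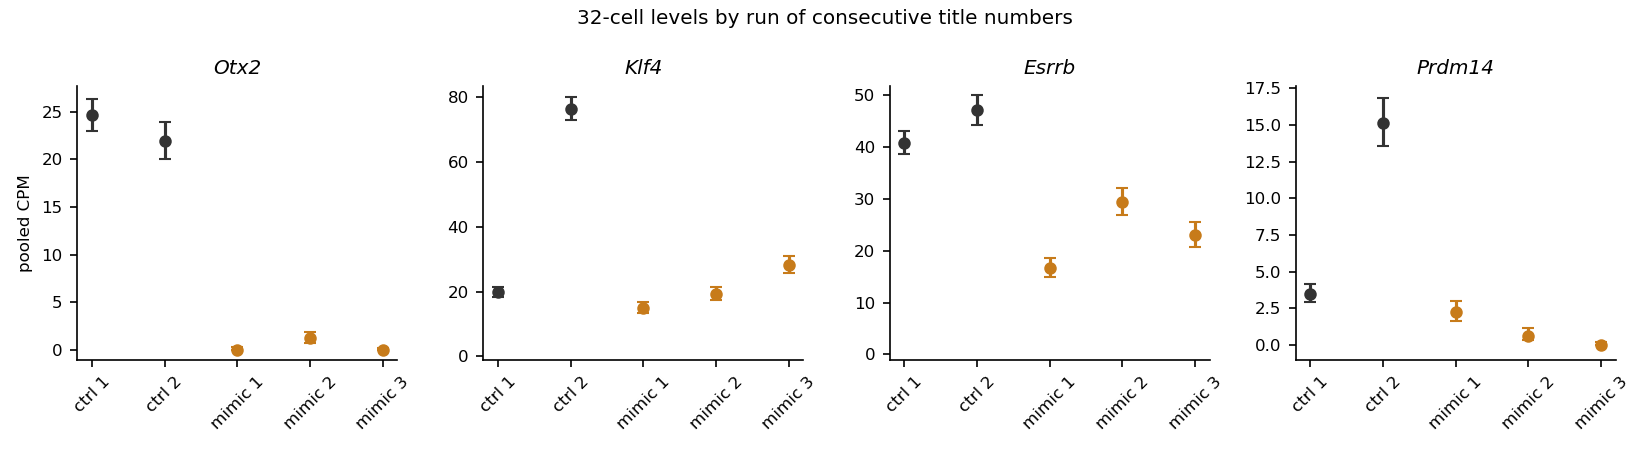
Pooled CPM of 4 factors in each 32-cell run of title numbers, with exact Poisson 95% intervals, control runs in black and mimic runs in orange. Over all cells of a run, *Otx2* and *Esrrb* separated the treatments, whereas the first control run of *Klf4* (19.8 CPM) lay among the mimic runs. The runs mix ICM-like and TE-like cells, and within TE-like cells the runs of *Esrrb* overlapped.

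The remaining factors at 20 CPM or more lay within 1.34-fold between treatments at the 32-cell stage. *Nanog* was 1.10-fold higher (1.08 to 1.12) with the mimic and *Sox2* 1.02-fold higher (0.936 to 1.10), while *Pou5f1* was 1.13-fold lower (1.11 to 1.16), *Sall4* 1.12-fold lower (1.10 to 1.14) and *Tfcp2l1* 1.34-fold lower (1.33 to 1.35). *Klf2* was under 20 CPM in both groups, at 8.70 and 10.1 CPM. The near equality of *Sox2* rested in part on 1 mimic cell at 350.3 CPM, which gave 26.3% of the counts of its group, and the level without it was 15.6 CPM.

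To place the factors in the lineages of the 32-cell embryo, the 78 cells were clustered on other genes, and the 2 clusters were named from 7 ICM and 9 TE markers. All 7 ICM markers were higher in 1 cluster (36 cells, called ICM-like) and all 9 TE markers in the other (42 cells, called TE-like). The 10 genes that led the TE-like cluster by fold held none of the markers, and those that led the ICM-like cluster held *Tdgf1* and also *Otx2*. In control embryos 25 of 39 cells were ICM-like (64.1%, exact binomial interval 47.2 to 78.8). In mimic embryos 11 of 39 were (28.2%, 15 to 44.9). A score of the markers alone called 17 mimic cells ICM-like (43.6%, 27.8 to 60.4) and left the control number at 25. These intervals take cells as independent, but the cells of a group share embryos. They are therefore too narrow to compare the treatments, and a difference in share was not tested. By staining blastocysts for lineage markers at the lower dose, the study found no shift with the mimic in ICM and TE proportions. The classes come from the same cells as the levels below, which are therefore descriptions.

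In control cells 3 of 8 factors were past 2-fold higher in ICM-like than in TE-like cells, beside 11.9% of 7239 genes tested, and 0 were lower, beside 10.1%. *Otx2* was almost wholly ICM-like, with 18 of 25 ICM-like cells at up to 146.1 CPM and 1 count in 1 of 14 TE-like cells. *Esrrb* was 9.84-fold higher (8.43 to 11.5), with a count in 22 of 25 against 3 of 14 cells. One TE-like cell gave 64.4% of the TE-like counts, and the TE-like cells of the runs stood at 0 and 16.8 CPM beside 69.2 and 72.2 CPM in ICM-like cells, so the size of this fold differed between runs. *Sox2* was 7.42-fold higher (6.08 to 9.14), with a count in 23 of 25 against 4 of 14 cells. One TE-like cell gave 55.1% of its TE-like counts, and the level without that cell was 2.13 CPM. In the runs *Sox2* stood at 25.6 and 43.9 CPM in ICM-like cells and at 2.79 and 6.56 CPM in TE-like cells. *Nanog* (1.74-fold), *Klf4* (1.75-fold), *Pou5f1* (1.40-fold) and *Sall4* (1.21-fold) were also higher in ICM-like cells without passing 2-fold. Without the second control run *Klf4* did pass it, by 1.73 on the log2 scale, and without the first its difference was 0.598 on that scale. *Tfcp2l1* was nearly level at 1834 and 1754 CPM. *Nanog* was held by all 14 TE-like cells, at 139.5 to 448.7 CPM. *Klf2* was 3.03-fold higher in ICM-like cells (2.42 to 3.82) at levels under 20 CPM. One TE-like cell gave 68.4% of its TE-like counts, and the runs stood at 14.2 and 8.97 CPM in ICM-like cells and at 0.859 and 8.29 CPM in TE-like cells, so in the second run the classes were nearly level.

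In mimic cells 2 of 7 factors were past 2-fold higher in ICM-like cells, beside 9.15% of 7465 genes tested, and 0 were lower, beside 9.32%. *Sox2* was 3.78-fold higher (3.35 to 4.26), with a count in 11 of 11 ICM-like cells and 10 of 28 TE-like cells. The TE-like level of 12.1 CPM was 4.73 CPM without the cell at 350.3 CPM, close to the 4.40 CPM of control TE-like cells. *Esrrb* was 2.22-fold higher (1.97 to 2.49), at 38.1 CPM against 17.2 CPM, and 13 of 28 TE-like cells held it. This call was lost without the first mimic run (log2 difference 0.95) or the second (0.40), with a pseudocount of 5 CPM (0.96) and with clusters from all genes (0.58), and in the last run the 1 ICM-like cell was at 0 and the TE-like cells at 26.8 CPM. *Tfcp2l1* was the one factor at 20 CPM or more that was lower in ICM-like cells, at 1209 and 1389 CPM. In the runs it stood at 1501, 770.4 and 1497 CPM in ICM-like cells and at 1514, 1374 and 1273 CPM in TE-like cells. The lower level therefore came mainly from the second run, and the last run pointed the other way.

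**Figure D4:**
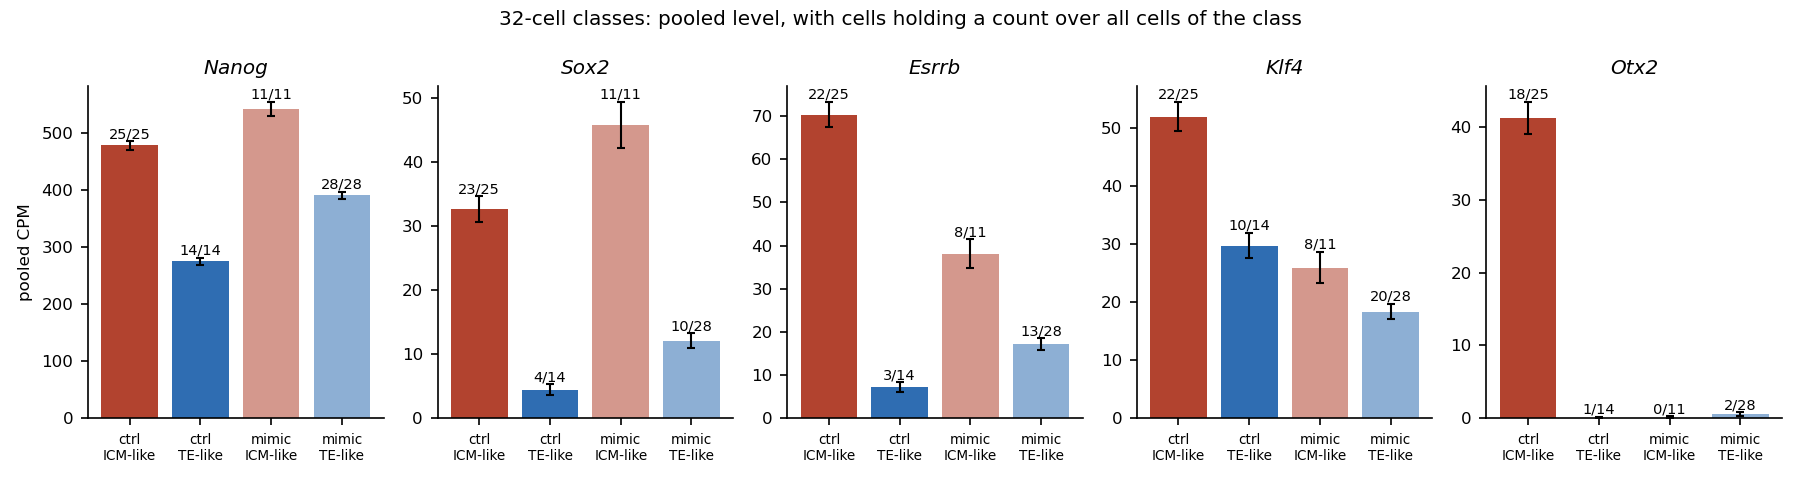
Pooled CPM of 5 factors in the 32-cell classes, with exact Poisson 95% intervals and, above each bar, the number of cells with a count over the number of cells of the class. *Otx2* stood at 41.2 CPM in control ICM-like cells and at 0 CPM in the 11 mimic ICM-like cells.

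Between treatments within ICM-like cells, 0 of 8 factors were past 2-fold higher with the mimic, beside 11.6% of 7437 genes tested, and 1 was past 2-fold lower, beside 10.5%. That factor was *Otx2*, with 0 counts in 11 mimic cells, which allows up to 0.215 CPM, against 1340 counts in 25 control cells, at least 191.4-fold lower. All 11 mimic ICM-like cells held *Sox2* and *Nanog*. Summed, the 7 ICM markers stood at 1658 CPM in control (667.9 to 2655 per cell) and 1422 CPM in mimic (381.5 to 2380 per cell), none at 0, and *Tdgf1* among them at 400.5 and 29.97 CPM. Of the 7, 1 was past 2-fold higher with the mimic and 2 were past 2-fold lower. Their median log2 change was -0.779, beside 0.032 over all genes tested. *Klf4* was 2.01-fold lower (1.79 to 2.25), just short of the rule on the log2(CPM + 1) scale, and the ICM-like cells of the control runs stood at 28.2 and 90.5 CPM, the first of them near the mimic level of 25.95 CPM. *Esrrb* was 1.85-fold lower (1.68 to 2.03) and *Tfcp2l1* 1.52-fold lower (1.49 to 1.54), and 10 of the 11 mimic ICM-like cells lay below the control median of *Tfcp2l1*. *Sox2* was 1.40-fold higher (1.27 to 1.55), *Nanog* 1.13-fold higher (1.10 to 1.17) and *Pou5f1* 1.01-fold lower (0.977 to 1.05). One mimic cell gave 28.3% of the mimic *Nanog* counts, and the level without it was 461.3 CPM, under the 477.9 CPM of control. The direction of *Nanog* therefore rests on that cell, and its median was 464.3 CPM in mimic and 479.9 CPM in control.

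Within TE-like cells 0 of 5 factors passed 2-fold in either direction, beside 11.9% higher and 7.79% lower of 7308 genes tested. *Nanog* was 1.42-fold higher with the mimic (1.38 to 1.46), and 11 of 28 mimic cells lay above every control cell. *Tfcp2l1* was 1.26-fold lower (1.25 to 1.28), and 11 of 28 mimic cells lay below every control cell. *Sox2* was 2.75-fold higher under 20 CPM, but without the mimic cell at 350.3 CPM the levels were 4.73 CPM in mimic and 4.40 CPM in control. *Esrrb* was 2.40-fold higher under 20 CPM, with the control runs at 0 and 16.8 CPM and the mimic runs at 9.61, 15.01 and 26.8 CPM, and 1 control cell gave 64.4% of the control counts. *Klf4* was 1.62-fold lower (1.46 to 1.80), but its TE-like cells stood at 7.80 and 59.4 CPM in the control runs and at 9.11, 15.3 and 30.5 CPM in the mimic runs. Without the second control run it was higher with the mimic, by 1.14 on the log2 scale, so its direction rests on that run. The 7 ICM markers had a summed level in TE-like cells of 271.1 CPM in control (54.6 to 658.9 per cell, 1 of 7 markers at 0) and 487.4 CPM in mimic (75.4 to 2028 per cell, none at 0). Of the 6 at 20 CPM or more, *Spic* and *Gdf3* were past 2-fold higher with the mimic and *Tdgf1* past 2-fold lower. Their part in the higher *Nanog* of mimic TE-like cells was not tested.

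Co-expression was described by Spearman's rho across the cells of a group, for factors with a count in at least 33.3% of those cells, and pairs at 0.3 or more were counted. The cells of a group share embryos, and rho carries no p-value here. In 8-cell control cells 0 of 28 pairs reached 0.3, beside 6.23% of all pairs of genes at 20 CPM or more, and the median rho was 0.024. Negative by 0.3 or more were 3 of the 28, beside 6.09% of all pairs, *Klf4* with *Tfcp2l1* (-0.371), *Nanog* with *Sall4* (-0.345) and *Klf2* with *Prdm14* (-0.335). In 8-cell mimic cells 2 of 21 pairs did, beside 10.0% of all pairs. They were *Nanog* with *Pou5f1* (0.692) and *Klf2* with *Tfcp2l1* (0.378). No pair was negative by 0.3 or more, beside 7.37% of all pairs. The same *Nanog* and *Pou5f1* pair was below 0.3 in 8-cell control cells.

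At the 32-cell stage 9 of 36 pairs reached 0.3 in control cells, beside 4.38% of all pairs, with a median rho of 0.199 against 0.003 over all pairs. *Otx2* was a partner in 4 of the 9, with *Klf2* (0.551), *Sox2* (0.536), *Nanog* (0.444) and *Esrrb* (0.394). *Sox2* was also paired with *Klf2* (0.521), *Pou5f1* (0.511) and *Esrrb* (0.411), and *Pou5f1* with *Nanog* (0.502) and *Esrrb* (0.409). No pair was negative by 0.3 or more, beside 4.02% of all pairs. Against *Cdx2*, the TE factor, rho was negative for *Nanog* (-0.499), *Otx2* (-0.440), *Pou5f1* (-0.401), *Esrrb* (-0.392) and *Sox2* (-0.365). Within control ICM-like cells these were -0.286 for *Nanog*, 0.052 for *Otx2*, -0.200 for *Pou5f1*, 0.206 for *Esrrb* and 0.089 for *Sox2*, and within control TE-like cells -0.108 for *Nanog* and 0.385 for *Pou5f1*. *Klf4*, *Sall4* and *Tfcp2l1* were in none of the 9 pairs, and rho of *Klf4* with *Gata6*, a factor of primitive endoderm, was 0.466 in control cells and -0.268 in mimic cells. Within ICM-like control cells 5 of 45 pairs did, beside 8.00% of all pairs there, and within TE-like control cells 6 of 15, beside 15.1%. In each of these classes 1 pair was negative by 0.3 or more, beside 7.54% and 14.9% of all pairs.

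In 32-cell mimic cells 5 of 28 pairs reached 0.3, beside 4.38% of all pairs, and the median rho was 0.025. *Sox2* was a partner in 4, with *Pou5f1* (0.406), *Esrrb* (0.403), *Klf2* (0.403) and *Sall4* (0.306), and the fifth was *Klf4* with *Sall4* (0.476). One pair was negative by 0.3 or more, *Klf2* with *Tfcp2l1* (-0.358), beside 3.73%. *Otx2* held too few cells to enter. Within mimic ICM-like cells 6 of 28 pairs reached 0.3, beside 18.8% of all pairs, and within mimic TE-like cells 3 of 28, beside 7.35%. Negative by 0.3 or more were 5 pairs of the ICM-like cells, beside 18.4%, such as *Nanog* with *Esrrb* (-0.697), and 2 of the TE-like cells, beside 6.52%. Over all 39 mimic cells, rho with *Cdx2* was -0.483 for *Sox2*, -0.399 for *Pou5f1*, -0.391 for *Esrrb* and -0.305 for *Nanog*. Within mimic ICM-like cells it was -0.219 for *Sox2*, -0.429 for *Pou5f1*, 0.587 for *Esrrb* and -0.496 for *Nanog*, so the sign of *Esrrb* turned. Within mimic TE-like cells it was -0.312 for *Sox2*. The pairs of *Sox2* with *Pou5f1*, *Esrrb* and *Klf2* reached 0.3 over all cells of both treatments. Within control and mimic ICM-like cells they were at 0.228 and 0.145 with *Pou5f1*, 0.063 and -0.550 with *Esrrb*, and 0.407 and 0.183 with *Klf2*. *Nanog* with *Sox2* was below 0.3 in both treatments, at 0.213 in control and 0.051 in mimic cells. The difference between the groups was not tested.

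**Figure D5:**
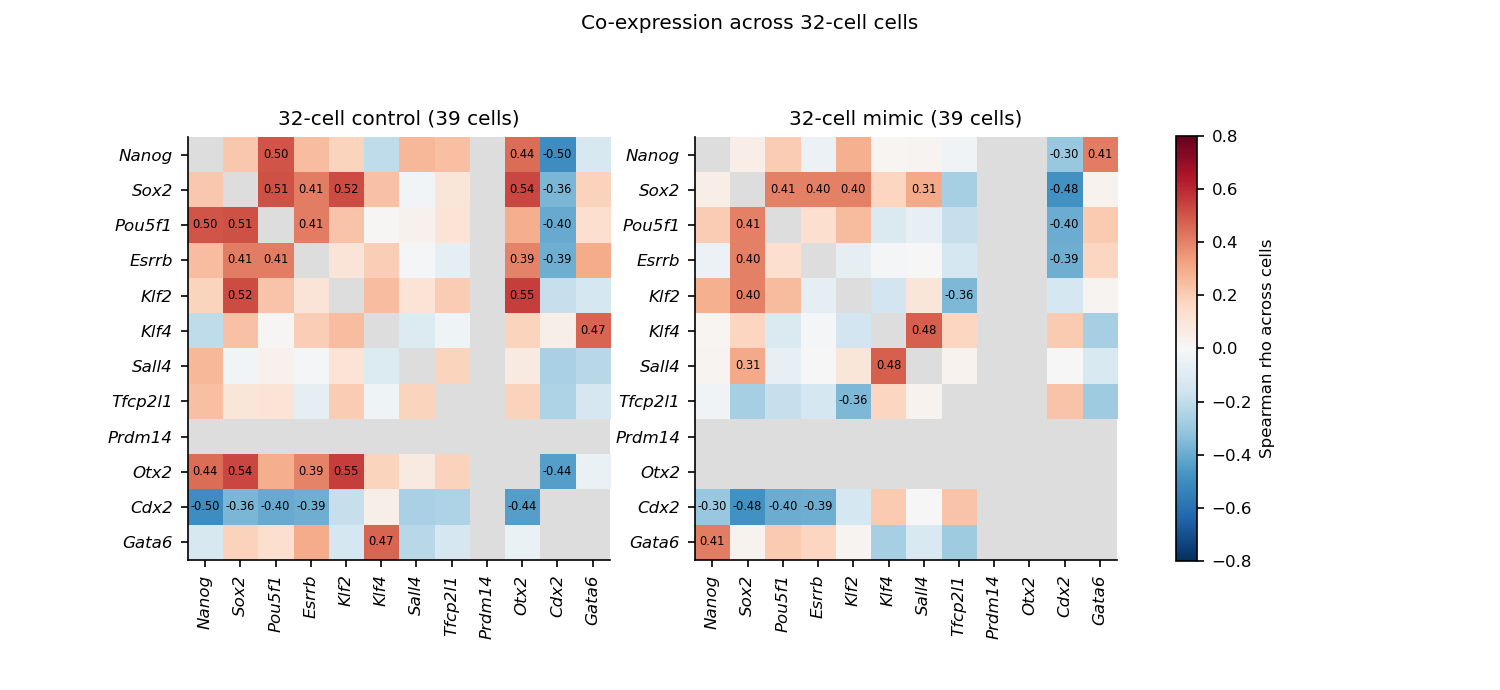
Spearman's rho across the 39 control cells and the 39 mimic cells of the 32-cell stage, for the 10 factors with *Cdx2* and *Gata6*; numbers are printed at 0.3 or more in size and grey marks pairs left out for few cells with a count. In control cells the 9 pairs at 0.3 or more lie among *Nanog*, *Sox2*, *Pou5f1*, *Esrrb*, *Klf2* and *Otx2*, and in mimic cells 4 of the 5 include *Sox2*.

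Counted as cells rather than ranks, *Sox2* and *Otx2* shared 18 of 39 control cells, *Sox2* was alone in 9 and *Otx2* alone in 1. All 19 control cells with *Otx2* also held *Tdgf1*, the NODAL co-receptor, which 14 further control cells held without *Otx2*, and neither of the 2 mimic cells with *Otx2* held it. *Tdgf1* was pooled at 248.7 CPM over the control group and at 11.9 CPM over the mimic group. *Sox2* and *Cdx2* were found together in 22 control cells and 13 mimic cells, so at this stage a count of one did not preclude the other. Spearman correlations of the factors with total counts at the 32-cell stage lay between -0.225 and 0.155 in control cells and between -0.322 and 0.311 in mimic cells.

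Among the 6127 genes at 20 CPM or more and in at least 33.3% of the cells in both 32-cell groups, those with the highest mean rho over control and mimic were taken for each factor. *Sox2* had the closest, the ETS factor *Spic* (0.676 in control, 0.761 in mimic), followed by the fatty acid binding protein *Fabp5* (0.623 and 0.598) and *Ppm1a* (0.560 and 0.604). *Spic* is also 1 of the 7 ICM markers. For *Esrrb* the nearest was *Pttg1* (0.576 and 0.533), for *Tfcp2l1* *Grwd1* (0.517 and 0.570), for *Pou5f1* fibronectin *Fn1* (0.519 and 0.478) and for *Nanog* *Glrx* (0.669 and 0.313). For *Klf2* it was *Upp1* (0.344 and 0.653), for *Klf4* *Anp32b* (0.460 and 0.532) and for *Sall4* *Efr3a* (0.513 and 0.364). The next but one for *Pou5f1* was *Sox2* itself (0.511 and 0.406). No other factor appeared among the 3 nearest genes of a factor. *Klf2*, *Prdm14* and *Otx2* could not appear there, because they were under 20 CPM in at least 1 of the groups and so were not among the genes searched.

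Of 24 other genes tied to pluripotency, 20 reached 20 CPM between the control stages, of which 5 were past 2-fold higher and 7 past 2-fold lower at the 32-cell stage, beside the 30% and 20.1% of all genes. *Stat3*, the effector of LIF signalling, was at 13.3 CPM and then 294.6 CPM, and *Zfp42* (REX1) at 77.2 and 314.2 CPM. *Sox15*, a relative of *Sox2* that is expressed earlier, went from 372.5 to 22.6 CPM, and *Rif1* from 1108 to 279 CPM. In mimic embryos 2 were higher and 7 lower of 19 (29.1% and 18.8% of all genes), with *Nr5a2*, which regulates *Pou5f1*, at 366.5 and then 73.2 CPM. Between treatments the list had 1 higher and 2 lower of 19 at the 8-cell stage (6.96% and 6.09% of all genes), where *Myc* went from 124.5 CPM in control cells to 38.8 CPM, and 0 higher and 5 lower of 20 at the 32-cell stage (6.87% and 5.36%). There *Etv5*, a target of FGF signalling, went from 117.7 CPM in control cells to 18.6 CPM, *Tcl1* from 36.6 to 9.60 CPM, and *Utf1* from 66.6 to 22.2 CPM. The median log2 change of the list at the 32-cell stage was -0.52, beside 0.01 over all genes tested, and that of the factors was -0.30.

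The 5 lower genes included 3 that were higher in ICM-like than in TE-like control cells, *Tcl1* (60.6 and 4.44 CPM), *Etv5* (184.7 and 28.02 CPM) and *Utf1* (97.3 and 25.6 CPM). *Mycn*, another of the 5, was lower in ICM-like than in TE-like control cells (25.9 and 75.3 CPM). Within ICM-like cells alone 4 of 18 were past 2-fold lower with the mimic and 0 higher, beside 10.5% and 11.6% of all genes. *Etv5* went from 184.7 CPM in control to 43.02 CPM, *Utf1* from 97.3 to 36.1 CPM, and *Mycn* from 25.9 to 3.87 CPM. In TE-like cells 5 of 19 were lower and 1 higher, beside 7.79% and 11.9%, the latter *Sall1* (21.5 and 45.0 CPM). Of 10 genes of the formative and primed states, 2 reached 20 CPM in each comparison and none of these passed 2-fold in any of the 8 comparisons.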

How the data were processed

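Single cells were sequenced with Smart-seq2. What the authors deposited for each gene and cell is an expected count without normalisation: they aligned reads to mm10 with STAR (2.5.1b) and quantified them with RSEM (1.3.0), per the labels. All values were whole numbers. Counts were summed over the cells of a group, and CPM, exact intervals and log2(CPM + 1) differences were computed in Python 3.11.15 (numpy 2.4.6, pandas 2.3.3, scipy 1.17.1). With 1 sample per group no test was made. Cells of the 32-cell stage were clustered in R 4.3.3 with Seurat 5.3.0 (2000 variable genes, 25 components, resolution 0.6) without the factors, the other lists and the markers. TMM factors came from edgeR 4.0.16. No doublet caller was run, since cells were picked by hand. The call rule and intervals were checked on simulated data.

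The factors, gene lists and rules were chosen with earlier results of these data known. All 10 factors are named. From the 24 other pluripotency genes and the 10 formative genes, up to 3 per direction with the largest log2 change past 2-fold are named in each comparison, not all of which are printed, and the nearest genes of a factor are the 3 with the highest mean rho. *Tdgf1*, *Cdx2* and *Gata6* were added as context. Level per kilobase used the union of annotated exons.

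Alternatives were totals with mitochondrial genes, TMM, the mean over cells, a pseudocount of 5 CPM, a limit of 5 CPM or none, cells thinned to 522178 counts, runs left out in turn, other class rules, Pearson's r and, added after seeing the data, each factor without its highest cell, and stages compared within 1 sex.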

Additional observations from a re-analysis of the deposited data

How the results depend on the processing

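Most counts of factors past 2-fold stayed within 1.5 times the reported count. For other values, such as the log2 change of a factor, 470 alternatives were scored as the same, 305 as moved and 1 as reversed. For the exceptions below the cause was not tested, except where fewer cells or a lower limit define the alternative. Leaving out each run gave 1 to 2 lower between control stages (*Klf4* joined without the second control run). For the mimic at the 8-cell stage it gave 0 to 2 higher and 1 to 2 lower, where leaving out the first control run leaves 2 cells. For the mimic at the 32-cell stage it gave 1 to 3 lower (1, *Otx2*, without the second control run or the first mimic run; *Esrrb* in place of *Klf4* without the second mimic run), and *Klf4* ranged from -1.86 to 0.038 on the log2 scale, reversed without the second control run. It gave 1 to 3 higher for ICM-like over TE-like mimic cells (1, without *Esrrb*, lacking the first mimic run), 1 to 3 lower with the mimic in ICM-like cells (2 with *Klf4* without the first control or first mimic run, 3 with *Esrrb* as well without the second mimic run), and 0 to 1 higher (*Esrrb*, without the first mimic run) and 0 to 1 lower (*Klf4*, without the first control or the last mimic run) in TE-like cells, where *Klf4* turned without the second control run. Pairs at rho 0.3 or more in 32-cell control cells numbered 13 to 14 without a run, over fewer cells, and 5 in ICM-like cells only, and in mimic cells 3 in TE-like cells only. Without the first 8-cell control run rho could not be computed.

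With a pseudocount of 5 CPM, 1 factor was lower at the 32-cell stage with the mimic and 1 higher in ICM-like mimic cells (*Klf4* and *Esrrb* lost). With a limit of 5 CPM or none, 5 were higher in ICM-like control cells (with *Klf2* and *Prdm14*), 2 lower with the mimic in ICM-like cells (with *Prdm14*) and 2 higher in TE-like cells (*Sox2* and *Esrrb*), and no limit gave 1 lower there (*Prdm14*). TMM and the marker score gave 2 lower in ICM-like cells (with *Klf4*). Clusters from all genes gave 2 lower there (with *Esrrb*) and 1 higher for ICM-like over TE-like mimic cells (*Esrrb* lost). The mean over cells and thinning each gave 1 lower in TE-like cells (*Klf4*). Without the highest cell of each factor, an alternative chosen after seeing the data, 2 were higher between control stages (*Sox2* and *Otx2* lost). With the mimic at the 32-cell stage 0 were then lower (*Otx2* lay under 20 CPM and *Klf4* short of 2-fold), and 2 were lower in ICM-like cells (with *Esrrb*). With only the 8-cell cells of the sex of the 32-cell cells, also chosen after seeing the data, 2 were lower between control stages (with *Esrrb*). No paired analysis was possible because each group is 1 sample, and the 24 title numbers found in 2 groups join 8-cell mimic with 32-cell control cells, which no comparison sets side by side. Depth limits what single cells show of *Prdm14*, *Sox2* and *Otx2*, since a count of 0 allows a few CPM.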
